A study of Mus musculus with 60 samples.

Results

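The genes examined here are 9 markers of GABAergic interneurons, Gad1, Gad2, Slc32a1, Sst, Pvalb, Vip, Npy, Reln and Tac1, out of 55196 annotated mouse genes. A peak was counted as theirs when the deposited peak lists gave it the gene's symbol, which held for 364 of 256375 peaks: 340 peaks of H3K27me3 and 24 of H4K8ac. H4K8ac, acetylation of histone H4 at lysine 8, marks active chromatin, and H3K27me3, trimethylation of histone H3 at lysine 27, is laid down by the Polycomb repressive complex at silent developmental genes. Both were mapped by CUT&RUN-seq, in which an antibody directs a nuclease to cut out the DNA around the mark, in hippocampal nuclei of male Emx1-NuTRAP mice. These animals, exercised and sedentary alike, carry an Emx1-IRES-Cre knock-in and a NuTRAP reporter, so that Cre tags nuclei of cells of the Emx1 lineage, including cells whose progenitors expressed Emx1. The tagged neurons are predominantly excitatory.

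In exercised mice running was voluntary, on a wheel, from postnatal days 21 to 41 (early-life exercise, ELE), and sedentary mice were kept over the same days without it. Tagged nuclei were pulled down (INTACT) from both hippocampi together in simultaneous isolations (SIT), which also yield ribosome-bound RNA by TRAP, or from the left or the right hippocampus alone in separate isolations. The labels give 4 samples per mark and condition for the SIT arm and 3 for either hemisphere, and likewise for IgG, 20 of the 60 samples in all, whose background was not analysed here. The study set aside some exercised H4K8ac libraries and, from its RNA data, some animals of both conditions. Where it overlaps SIT peaks with RNA changes, it gives fewer mice of either condition than the labels do. It does not state list by list how many libraries entered, so the SIT lists may rest on fewer than the labelled samples. Each mark, condition and arm has a single pooled peak list, 12 in all, so no value below has a replicate behind it; the spread given is that between lists, and read depth per list is unknown.

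GABAergic interneurons are the inhibitory neurons of the hippocampus. They arise in the ganglionic eminences of the ventral forebrain, whereas Emx1 marks the dorsal progenitors that give rise to the excitatory pyramidal and granule cells. Glutamate decarboxylase, encoded by Gad1 and Gad2, makes GABA from glutamate, and the vesicular transporter encoded by Slc32a1 loads it into synaptic vesicles; the other markers are the peptides, the calcium buffer and the extracellular matrix protein by which interneuron classes are told apart.

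H3K27me3 peaks were assigned to 8 of the 9 genes in every list, and H4K8ac peaks to 1 to 3 of them. The H3K27me3 lists name 11.5% of all annotated genes in the exercised SIT list, 6.78% in the sedentary SIT list, 9.22% and 8.27% in the exercised and sedentary left lists, and 6.21% and 10.6% in the exercised and sedentary right lists. The H4K8ac lists name 19% and 15.3% in the exercised and sedentary SIT lists, 9.07% and 18.1% in the left lists and 10.3% and 14.7% in the right lists, a larger share than the H3K27me3 list of the same condition in all but the exercised left arm. Among protein-coding genes alone, 13.3 to 24.6% were named by an H3K27me3 list and 19.6 to 41.2% by an H4K8ac list. Gad2, Sst, Pvalb, Vip, Npy, Reln and Tac1, 7 of the 9, had an H3K27me3 peak in 6 of 6 lists, where 4.98% of annotated genes did. None of the 9 had an H4K8ac peak in 6 of 6 lists, where 5.84% of annotated genes did.

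**Figure D1:**
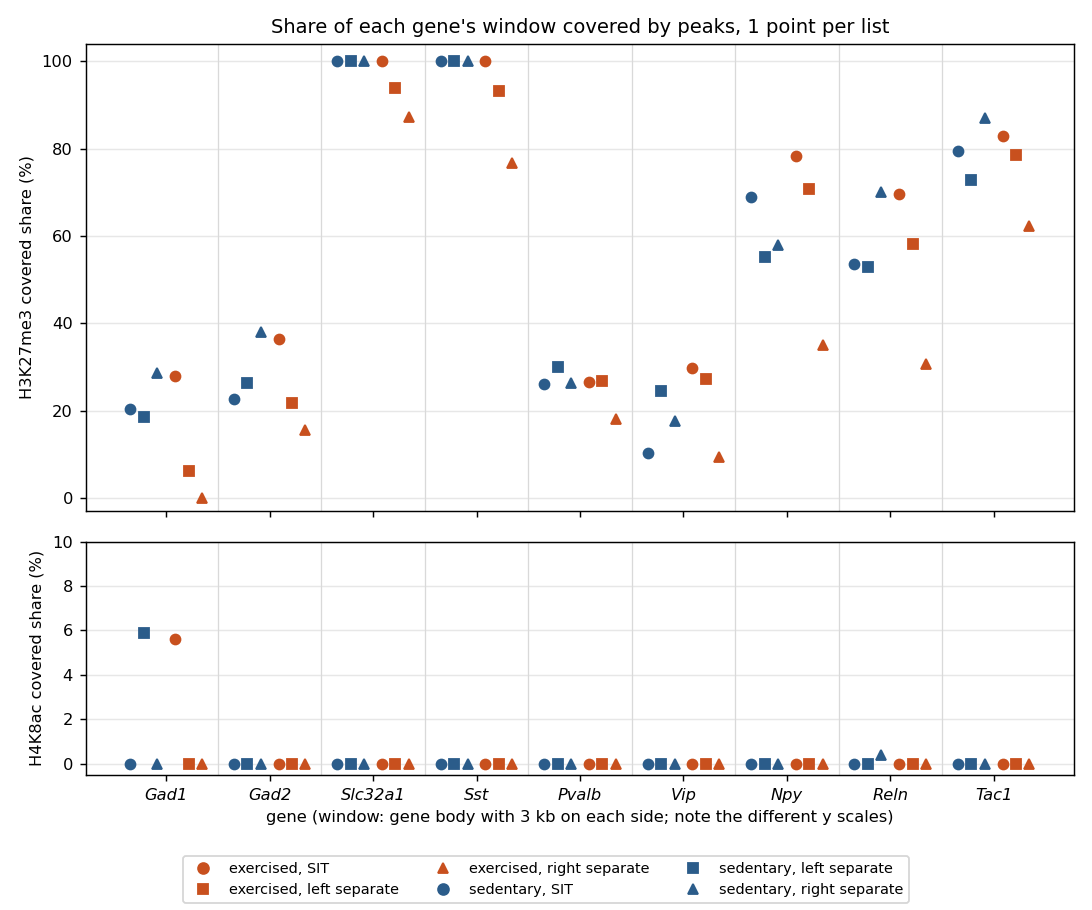
The percentage of each gene's window (gene body with 3 kb on each side) that H3K27me3 peaks (upper panel) and H4K8ac peaks (lower panel, on its own scale) cover, with 1 point per pooled list, coloured by condition and shaped by arm. H3K27me3 covers part of every window in all lists except that of Gad1 in the exercised right list, whereas H4K8ac is at 0 but for 2 lists of Gad1 and 1 of Reln.

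At the start sites the marks differed as well. Counting a gene when a RefSeq start of its own lay inside a peak, H3K27me3 peaks held the starts of 7 to 9 of the 9 genes per list, and 7 of them in 6 of 6 lists (Gad2, Slc32a1, Sst, Pvalb, Npy, Reln and Tac1), where 4.39% of protein-coding genes met the same count. H4K8ac peaks held the start of none of the 9 in any list; 5.37 to 20.8% of protein-coding genes had a start inside an H4K8ac peak, depending on the list, and 1.33% had it in 6 of 6.

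**Figure D2:**
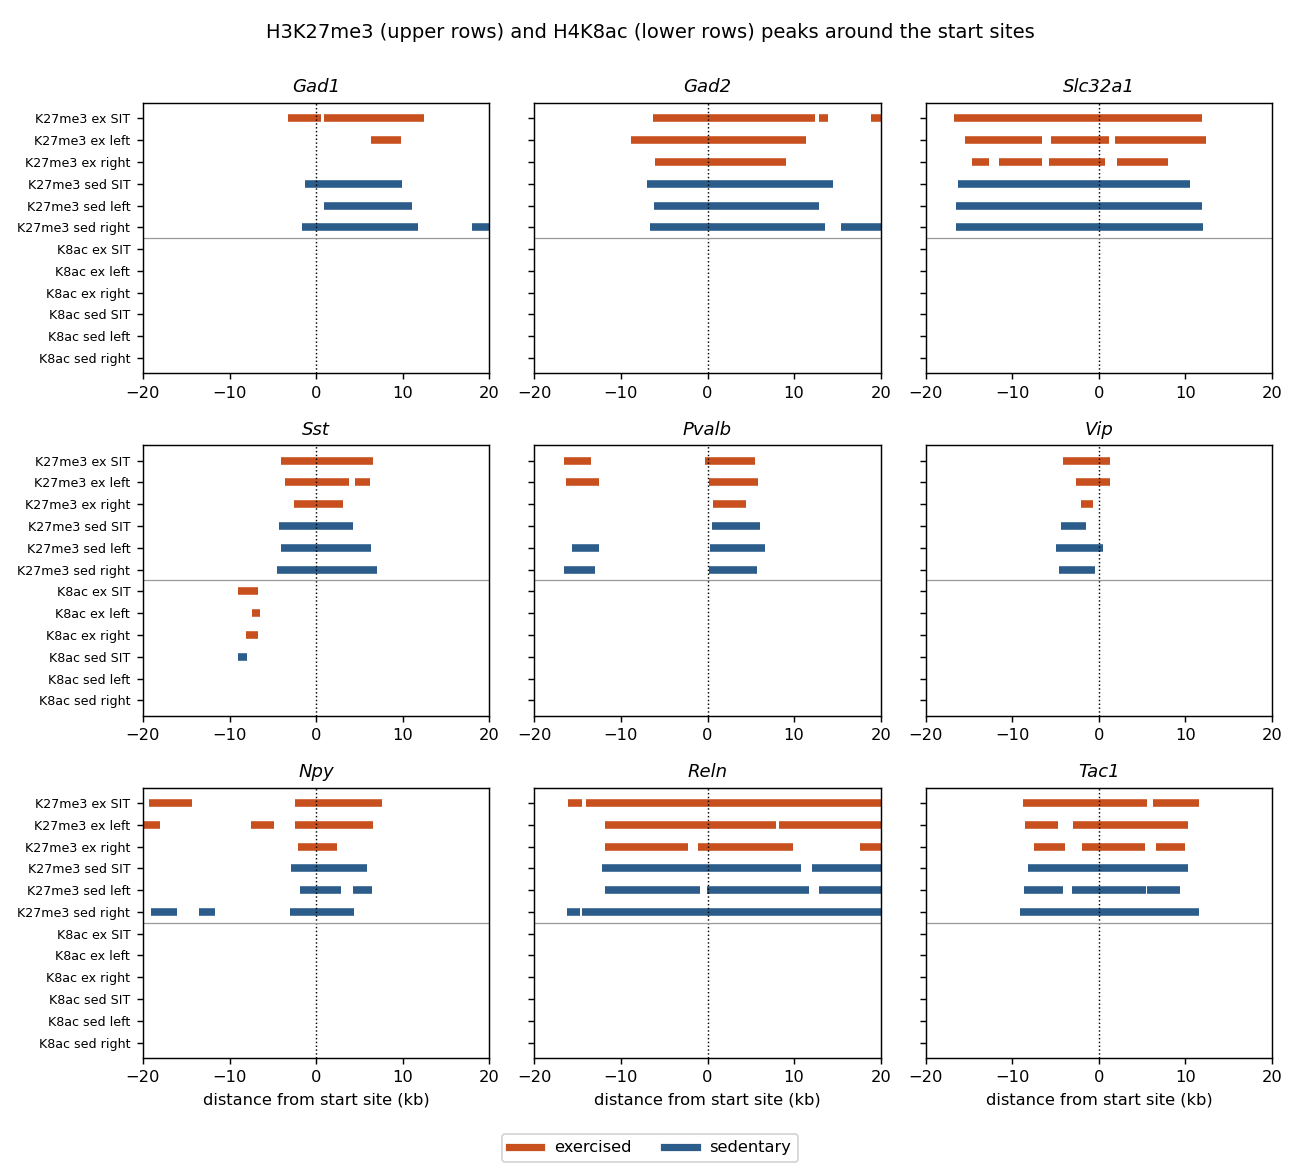
Peaks within 20 kb of the RefSeq start of each gene, drawn along the direction of transcription with distance from the start in kb; rows are the 6 H3K27me3 lists above and the 6 H4K8ac lists below, coloured by condition. H3K27me3 crosses every start in at least 1 list, and in this range the only H4K8ac peaks are those upstream of Sst.

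The genes of GABA synthesis and loading were all on chromosome 2. Gad1 (ENSMUSG00000070880, chr2:70553072-70602014 on the plus strand, mm10) encodes the larger glutamate decarboxylase. With 3 kb on each side it had the lowest mean H3K27me3 coverage of the 9 over the 6 lists (16.9%), although in single lists Vip or Pvalb was lower. The lowest mean was at Vip with the gene body alone, and at Pvalb within 3 kb of the start. Peaks covered 28.0% of the Gad1 window in the exercised SIT list and 20.3% in the sedentary SIT list, 6.28% and 18.5% in the exercised and sedentary left lists, and 0 and 28.6% in the exercised and sedentary right lists. The exercised right list therefore stood apart, with no H3K27me3 peak touching the gene, and each of the other 5 lists had a peak in a region from 3.21 kb upstream to 12.5 kb downstream of the RefSeq start. The sedentary right list had a further intronic peak of 2286 bp, 18.1 to 20.3 kb downstream. The start itself was inside a peak in 3 lists, both SIT lists and the sedentary right list. Its 300-base promoter from RefSeq (GRCm38.p6, chr2:70561879-70562178, plus strand, 250 bases before to 50 after the start) is shown because the lists differ in whether a peak reaches it, with CG dinucleotides, the sites of CpG methylation, in capitals.
Gad1 promoter: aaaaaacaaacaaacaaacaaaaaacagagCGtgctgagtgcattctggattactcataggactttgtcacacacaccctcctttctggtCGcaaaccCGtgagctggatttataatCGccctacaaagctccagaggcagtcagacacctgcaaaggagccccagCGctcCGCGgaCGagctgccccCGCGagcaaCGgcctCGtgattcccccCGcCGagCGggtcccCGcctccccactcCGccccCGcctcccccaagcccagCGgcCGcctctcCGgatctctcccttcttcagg

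Gad2 (ENSMUSG00000026787, chr2:22622205-22693874, plus strand) encodes the smaller, membrane-associated decarboxylase. A single wide H3K27me3 peak lay over its start in 6 of 6 lists, 18.7 kb in the exercised and 21.5 kb in the sedentary SIT list, 20.3 and 19.0 kb in the left lists, and 15.1 and 20.3 kb in the right lists. Its upstream edge stayed between 6.10 and 8.88 kb before the start, and its downstream edge between 9.04 and 14.5 kb after it, so that the widths differed by less than a factor of 1.5 across all lists. The covered share of the whole 71.7 kb gene with its flanks ran from 15.7% in the exercised right list to 38.0% in the sedentary right list, with the rest of the coverage in peaks inside the gene that the deposited files assign to Mir3967, apart from an intronic peak of 1029 bp in the exercised SIT list that is assigned to Gad2. No H4K8ac peak was assigned to Gad2 or overlapped its window.

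Slc32a1 (ENSMUSG00000037771, chr2:158610767-158615748, plus strand), the vesicular GABA transporter, was named by a single H3K27me3 list, the exercised right list, and by no H4K8ac list. That count came from the assignment of peaks to genes, since H3K27me3 peaks covered 100% of its window in the exercised SIT list and in all 3 sedentary lists, 93.9% in the exercised left list and 87.2% in the exercised right list. A peak of 28.6 kb in the exercised SIT list, and of 26.7 (SIT), 28.4 (left) and 28.6 kb (right) in the sedentary lists, spanned the whole gene and was assigned to Gm14204, a non-coding transcript on the opposite strand whose start is 35 bp from that of Slc32a1. In the exercised left and right lists the same stretch was broken, with the start inside peaks of 6.80 and 6.53 kb that were again assigned to Gm14204. The downstream piece went to Actr5, a chromatin remodelling subunit gene 14130 bp away, in the exercised left list and to Slc32a1 in the exercised right list. By mean coverage of the gene body with 3 kb on each side, Slc32a1 was the most fully H3K27me3-marked of the 9 genes. With the gene body alone Sst was higher (100% against 93.1%), and within 3 kb of the start Gad2, Sst, Tac1 and Reln were higher. The Slc32a1 promoter (GRCm38.p6, chr2:158610508-158610807, plus strand, CG in capitals), which the divergent start of Gm14204 shares, is shown for its coverage.
Slc32a1 promoter: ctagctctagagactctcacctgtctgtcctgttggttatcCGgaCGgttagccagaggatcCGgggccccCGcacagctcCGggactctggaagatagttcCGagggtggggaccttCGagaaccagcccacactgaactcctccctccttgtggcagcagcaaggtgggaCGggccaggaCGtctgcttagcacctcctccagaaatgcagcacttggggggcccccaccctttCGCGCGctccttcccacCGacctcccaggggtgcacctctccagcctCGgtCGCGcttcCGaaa

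Among the neuropeptide genes, H3K27me3 coverage ranged from nearly the whole window at Sst to a short stretch at Vip. Sst (ENSMUSG00000004366, chr16:23889573-23890958, minus strand) encodes somatostatin, the peptide of dendrite-targeting interneurons. H3K27me3 covered 100% of its window in the exercised SIT list and in all 3 sedentary lists, 93.1% in the exercised left list and 76.7% in the exercised right list. The peak over the start was 10.6 and 8.62 kb wide in the exercised and sedentary SIT lists, 7.40 and 10.5 kb in the left lists and 5.66 and 11.6 kb in the right lists. A second H3K27me3 region, chr16:23834872-23847603, lay 43.2 to 56.0 kb beyond the start on the downstream side, was annotated as distal intergenic and held a peak in 6 of 6 lists.

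Sst was also the gene with the nearest H4K8ac peak. A peak of 2355 bp in the exercised SIT list, 902 bp in the exercised left list, 1326 bp in the exercised right list and 1058 bp in the sedentary SIT list lay 6.67, 6.48, 6.74 and 8.01 kb upstream of the start, and the sedentary left and right lists had none in the region. It was thus present in 3 of 3 exercised and 1 of 3 sedentary lists, and the sedentary SIT peak overlapped only the exercised SIT peak and the outer end of the exercised right peak. Each of these peaks stood outside the H3K27me3 domain found in the matching list, with 2.66 to 4.22 kb between them. The 3 exercised peaks share chr16:23897588-23898226, an intergenic stretch of 639 bp. Its central 300 bases (GRCm38.p6, chr16:23897758-23898057) are printed on the minus strand, in the direction of Sst transcription, beside the promoter (chr16:23890795-23891094, minus strand) to show how the acetylated and the H3K27me3-covered sequence differ in CG dinucleotides, in capitals.
Sst promoter: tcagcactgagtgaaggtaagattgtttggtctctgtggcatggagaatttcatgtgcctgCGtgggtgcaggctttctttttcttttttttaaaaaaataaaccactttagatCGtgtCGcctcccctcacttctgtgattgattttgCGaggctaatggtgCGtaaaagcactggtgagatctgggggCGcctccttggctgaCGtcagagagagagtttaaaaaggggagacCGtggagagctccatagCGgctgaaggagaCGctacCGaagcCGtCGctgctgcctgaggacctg
Sst upstream H4K8ac region: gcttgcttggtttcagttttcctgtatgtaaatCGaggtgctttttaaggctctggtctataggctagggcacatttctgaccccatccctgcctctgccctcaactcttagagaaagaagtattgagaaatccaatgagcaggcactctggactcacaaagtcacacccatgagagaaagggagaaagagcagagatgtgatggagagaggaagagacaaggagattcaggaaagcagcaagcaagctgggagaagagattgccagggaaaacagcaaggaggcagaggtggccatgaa
The promoter holds 13 CG dinucleotides and the upstream stretch 1, with similar base composition (50.3% and 48.3% G or C).

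**Figure D3:**
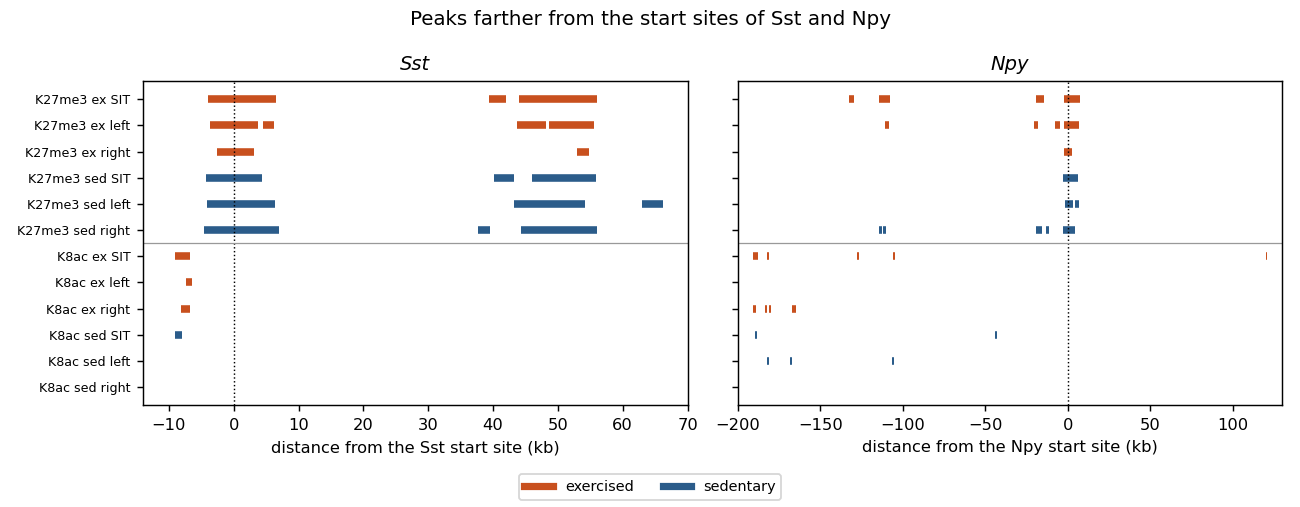
Peaks at a larger scale around Sst (left, 14 kb upstream to 70 kb downstream) and Npy (right, 200 kb upstream to 130 kb downstream), with distance from the start in kb and the same rows and colours as in the plot of the 9 start sites. The H4K8ac peaks assigned to either gene lie outside the H3K27me3 domain over its start, within 9.07 kb of the start for Sst and at least 43.2 kb from it for Npy.

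Vip (ENSMUSG00000019772, chr10:5639218-5647617, plus strand) encodes vasoactive intestinal peptide, found in interneurons that inhibit other interneurons. It had exactly 1 H3K27me3 peak in each list, all in 1 region upstream of or across the start. Peak widths were 5478 and 2858 bp in the exercised and sedentary SIT lists, 3928 and 5440 bp in the left lists and 1363 and 4191 bp in the right lists. The peak crossed the start in both left lists and the exercised SIT list and ended 1511, 740 and 459 bp before it in the sedentary SIT, exercised right and sedentary right lists. The covered share ranged from 9.47% in the exercised right list to 29.8% in the exercised SIT list. Its promoter (GRCm38.p6, chr10:5638968-5639267, plus strand, CG in capitals) is shown as the CpG-poor end of the set.
Vip promoter: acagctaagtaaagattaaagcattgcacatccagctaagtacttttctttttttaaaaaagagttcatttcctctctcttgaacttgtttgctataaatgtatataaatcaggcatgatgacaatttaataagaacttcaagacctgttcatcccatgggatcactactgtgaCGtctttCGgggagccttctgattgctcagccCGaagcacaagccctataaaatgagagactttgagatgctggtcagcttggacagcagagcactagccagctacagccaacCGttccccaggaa

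Npy (ENSMUSG00000029819, chr6:49822710-49829507, plus strand), which encodes neuropeptide Y, had a peak across its start in 6 of 6 lists. H3K27me3 covered 78.4% and 69.0% of its window in the exercised and sedentary SIT lists, 70.8% and 55.1% in the left lists, and 35.2% and 58.0% in the right lists. The exercised right list was the lowest, and the other 5 lay between 55.1% and 78.4%. Tac1 (ENSMUSG00000061762, chr6:7554879-7565834, plus strand), the precursor of substance P, was covered at 83.0% and 79.5% in the SIT lists, 78.5% and 72.8% in the left lists and 62.3% and 87.1% in the right lists, exercised first. Its assigned peaks reached far upstream, and an intergenic region 74.1 to 98.8 kb before the start, chr6:7456271-7480985, held an H3K27me3 peak in 6 of 6 lists, as did the gene's own domain of up to 20.7 kb. Tac1 had no H4K8ac peak in any list.

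Pvalb (ENSMUSG00000005716, chr15:78191114-78206400, minus strand) encodes parvalbumin, the calcium buffer of fast-spiking basket cells. Its H3K27me3 peak began close to the upstream start and ran into the gene, and its covered share had the smallest SD of the 9 (3.99 percentage points over the 6 lists): 26.6% and 26.1% of the window in the SIT lists, 26.7% and 30.0% in the left lists and 18.0% and 26.3% in the right lists, exercised first. RefSeq gives Pvalb 2 starts; the upstream start was inside the peak in the exercised SIT list only, and in the other lists the peak began 116 to 624 bp downstream of it, while the downstream start was inside a peak in 6 of 6 lists. The promoter of the upstream start has 5 CG dinucleotides and that of the downstream start 25. A second H3K27me3 peak 12.5 to 16.6 kb upstream, chr15:78218918-78223024, appeared in 4 lists, both left lists, the exercised SIT list and the sedentary right list.

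Reln (ENSMUSG00000042453, chr5:21884454-22344702, minus strand), at 460 kb by far the longest of the 9, encodes reelin, the extracellular matrix protein that Cajal-Retzius cells and some interneurons secrete. It took 221 of the 340 H3K27me3 peaks, 34 and 29 in the exercised and sedentary SIT lists, 41 and 36 in the left lists, and 40 and 41 in the right lists. These covered 69.6% and 53.7% of its window in the SIT lists, 58.1% and 52.9% in the left lists and 30.8% and 70.1% in the right lists. The number of peaks did not track the coverage, since the exercised right list, with the lowest share, had 40 peaks, the widest of 12488 bp, against 43524 bp for the widest in the exercised SIT list. Merged over the lists, the peaks formed 27 regions, 15 of them with a peak in 6 of 6 lists, and the region over the start extended from 16.2 kb upstream to 35.2 kb into the gene. A further region 27.5 to 70.5 kb upstream, chr5:22372241-22415219, also recurred in 6 of 6 lists. The Reln promoter (GRCm38.p6, chr5:22344656-22344955, minus strand, CG in capitals) is shown as the CpG-rich end of the set, with 47 CG dinucleotides against 4 at Vip, although both lie in or beside H3K27me3.
Reln promoter: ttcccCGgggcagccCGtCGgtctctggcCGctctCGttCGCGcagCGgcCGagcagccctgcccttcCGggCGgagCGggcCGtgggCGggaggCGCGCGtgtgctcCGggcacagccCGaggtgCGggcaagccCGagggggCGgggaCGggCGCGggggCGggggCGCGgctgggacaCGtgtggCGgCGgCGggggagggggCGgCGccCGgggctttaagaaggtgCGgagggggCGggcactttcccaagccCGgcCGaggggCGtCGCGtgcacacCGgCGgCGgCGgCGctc

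**Figure D4:**
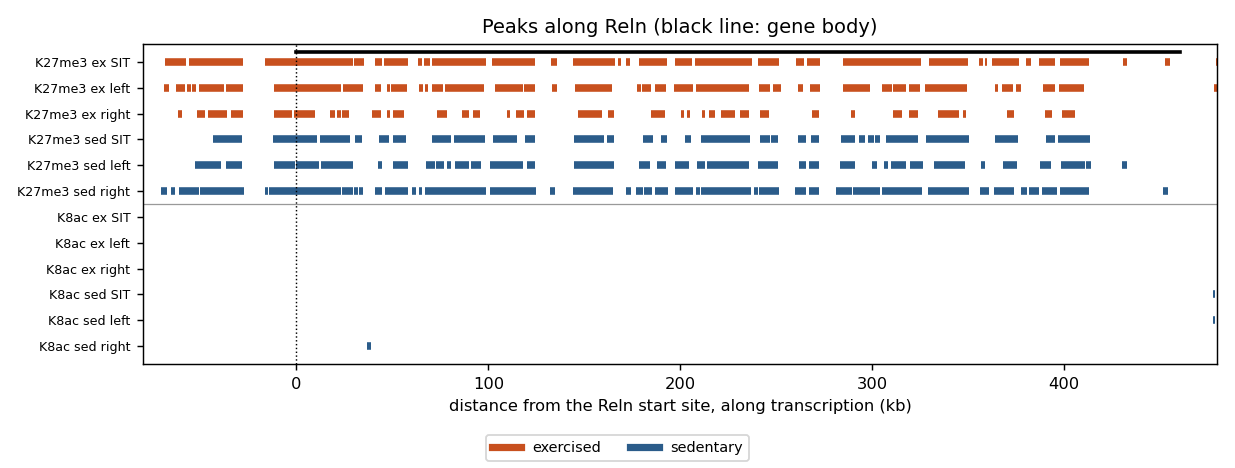
H3K27me3 (upper rows) and H4K8ac (lower rows) peaks along Reln, with distance from the start in kb along transcription and the gene body as a black line. H3K27me3 blocks recur at the same places in all 6 lists, narrower in the exercised right list, and the single H4K8ac peak within the gene is in the sedentary right list.

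The 10 RefSeq promoters of the 9 genes (Pvalb has 2) held a median of 19 CG dinucleotides in 300 bases, against 7 over 32851 mouse promoters of the same length. The number varied widely among them: 98.6% of promoters had fewer CG dinucleotides than Reln, and 31.4% had fewer than Vip. The cyclic AMP response element TGACGTCA, searched on both strands, occurred in the Sst promoter 48 bases before the start and in none of the other member promoters, against 1.79% of all promoters. The GC box GGGCGG was present in 4 of the 10, those of Gad1, Npy, Reln and Tac1, against 35.7% of all promoters. These are matches of letters only.

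The H4K8ac peaks assigned to these genes lay away from their starts. Of the 24, none was in the promoter class, which held 23.5% of all H4K8ac peaks. Their distance to the RefSeq start ran from 6.48 to 189 kb. None of the 24 overlapped H3K27me3 in the matching list. The share of all H4K8ac peaks without such an overlap was not computed, so this count cannot be read as particular to these genes. Npy received 14 of the 24, namely 5 in the exercised and 2 in the sedentary SIT list, 0 in the exercised and 3 in the sedentary left list, and 4 in the exercised and 0 in the sedentary right list. All were intergenic and at least 43.2 kb from the gene, so the nearest-gene rule alone ties them to Npy. In the exercised SIT list 2 of them lay 1.74 and 1.97 kb from distal H3K27me3 peaks also assigned to Npy, which were more than 100 kb upstream. Gad1 received 2 in the exercised SIT list and 2 in the sedentary left list, all within the gene 24.4 to 31.9 kb downstream of the start, and 13.4 to 17.8 kb from its H3K27me3 domain. The remaining peaks were the 4 upstream of Sst, 1 intergenic peak 74.0 kb from Vip in the sedentary left list and 1 intronic peak of Reln, 37.0 kb from its start, in the sedentary right list. Gad2, Slc32a1, Pvalb and Tac1 received none. Lists pool whole nuclear preparations, so that fewer nuclei carrying a mark and less of it per nucleus cannot be told apart.

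To compare the marks, the covered share of H4K8ac was subtracted from that of H3K27me3 in each of the 6 pairs of lists of the same condition and arm. H3K27me3 was higher in 6 of 6 pairs for 8 of the 9 genes and in 5 of 6 for Gad1, where the exercised right pair had neither mark. The count was 7 of the 9 with the gene body alone or the widest 50% of each list, where Vip no longer reached 6 of 6, and with the gene body alone the mean difference at Vip was 6.21 percentage points. Over all 27356 genes with coverage by either mark, H3K27me3 was higher in 6 of 6 pairs for 12.7% and H4K8ac for 11.6%. The mean difference was 96.9 percentage points ± 5.30 (SD over 6 pairs) for Slc32a1, 95.0 ± 9.37 for Sst, 77.2 ± 8.73 for Tac1, 61.1 ± 15.3 for Npy and 55.8 ± 14.3 for Reln. It was 26.8 ± 8.77 for Gad2, 25.6 ± 3.99 for Pvalb, 19.8 ± 8.70 for Vip and 15.0 ± 10.7 for Gad1. Neighbours in this order, such as Slc32a1 and Sst, Npy and Reln, or Gad2, Pvalb and Vip, differed by less than the larger of their SDs over the pairs. The median over the 9 was 55.8 percentage points, against -1.61 over all genes tested. A two-sided exact sign-flip permutation test gave p = 0.03125 for 8 genes, the smallest that 6 pairs allow, and p = 0.0625 for Gad1. After Benjamini-Hochberg adjustment over all genes tested these became 0.128 and 0.170, so no gene, in the set or outside it, passed 0.05 at this number of pairs. The pairs are pooled lists of 3 arms rather than animals, so no p-value here measures the spread between animals. Where all differences have the same sign, p depends only on the number of pairs that differ, not on the size or spread of the differences.

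The second question was whether early-life exercise changed either mark at these genes. For H3K27me3, no member was gained (listed in the exercised list alone) or lost (listed in the sedentary list alone) in the SIT and left arms, although 41.4% of the genes listed in either SIT list were gained and 1.02% lost, and in the left arm 18.5% were gained and 9.13% lost. In the right arm Slc32a1 was gained and Gad1 lost, where 3.12% of listed genes were gained and 43.6% lost. The Slc32a1 gain came from assignment, since its window was fully covered in the sedentary right list, whereas no H3K27me3 peak of any assignment touched the Gad1 window in the exercised right list.

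In H4K8ac, Gad1 was gained and no member lost in the SIT arm (27.5% and 10.1% of listed genes). In the left arm Sst was gained (3.58% of listed genes were), and Gad1, Vip and Npy were lost (51.9%). Over the 3 arms, the 4 H4K8ac losses became 2 when the longer list was cut to the length of the shorter and 1 with the widest 50% of each list, while the 4 gains stayed at 4. In the right arm Sst and Npy were gained (9.14%) and Reln was lost (36.7%). Sst was the only member gained in more than 1 arm, in both separate arms, and its peak was in both lists of the SIT arm. These gains stood in exercised lists of 12168 and 13715 peaks, shorter than the sedentary lists of 36425 and 25159 peaks beside them, and the libraries that the authors left out for a high false discovery rate were exercised H4K8ac libraries, most of them from the separate isolations, so that fewer libraries than the labels give may stand behind these lists. With a single pooled list per condition and arm there is no test of any of these gains or losses.

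H3K27me3 coverage of the 9 windows differed in direction between the arms. In the SIT arm, 7 of the 9 were covered more in the exercised list and 2, Slc32a1 and Sst, were at 100% in both, where 83.3% of all covered genes were higher in the exercised list and that list covered 1.88 times as many bases as the sedentary list. In the left arm 4 were higher and 5 lower in the exercised list, against 60.8% of all genes higher and a ratio of covered bases of 1.25. In the right arm all 9 were lower in the exercised list, against 4.4% of all genes higher and a ratio of 0.360. The median difference over the 9, exercised minus sedentary, was 7.62 percentage points in the SIT arm, -3.22 in the left arm and -22.8 in the right arm, beside 9.63, 1.97 and -15.0 over all covered genes. None of the 9 moved the same way in all 3 arms, as 4.19% of all genes tested did. Averaged over arms the differences ran from -11.1 ± 18.1 (SD, n = 3 arms) for Gad1 to 4.70 ± 13.9 for Vip, each smaller than its spread over the arms. The exact sign-flip permutation test cannot go below p = 0.25 with 3 arms, and the adjusted p was 1 for every member. In H4K8ac only Gad1 and Reln had any coverage, with differences averaged over arms of -0.0837 ± 5.76 and -0.131 ± 0.227 percentage points.

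Other interneuron genes gave a reference for these values. Of 18 transcription factors of the interneuron lineage, 14 to 16 were named by each H3K27me3 list and 13 by all 6, among them Lhx6 and Sox6, which act in interneurons from the medial ganglionic eminence, and Dlx5, Gsx2 and Sp8. The median covered share in the list was 88.3%, and H4K8ac peaks held the start of none of the 18 in any list. Dlx2 and Satb1 were named by all 6 H4K8ac lists, and Satb1 by no H3K27me3 list; the H4K8ac peaks assigned to Dlx2 left its window uncovered (0%). Among 18 further peptide and subtype genes the marks were mixed. Crh, Ndnf, Kit, Crhbp, Nxph1 and Erbb4 were in all 6 H3K27me3 lists, and Cck, Calb1, Lamp5 and Kit in all 6 H4K8ac lists. Cck, Cort, Calb1, Lamp5 and Id2 had no H3K27me3 peak in any list. A further list of 10 held genes that transport GABA or feed and break down its pool, together with the creatine transporter gene Slc6a8. Aldh5a1 and Slc38a1 were among those in all 6 H4K8ac lists, and Slc6a13 and Abat were in all 6 H3K27me3 lists. Slc6a8 had no peak of either mark in any list. Per list, 5 to 8 of the 10 had an H4K8ac peak and 2 to 5 an H3K27me3 peak.

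**Figure D5:**
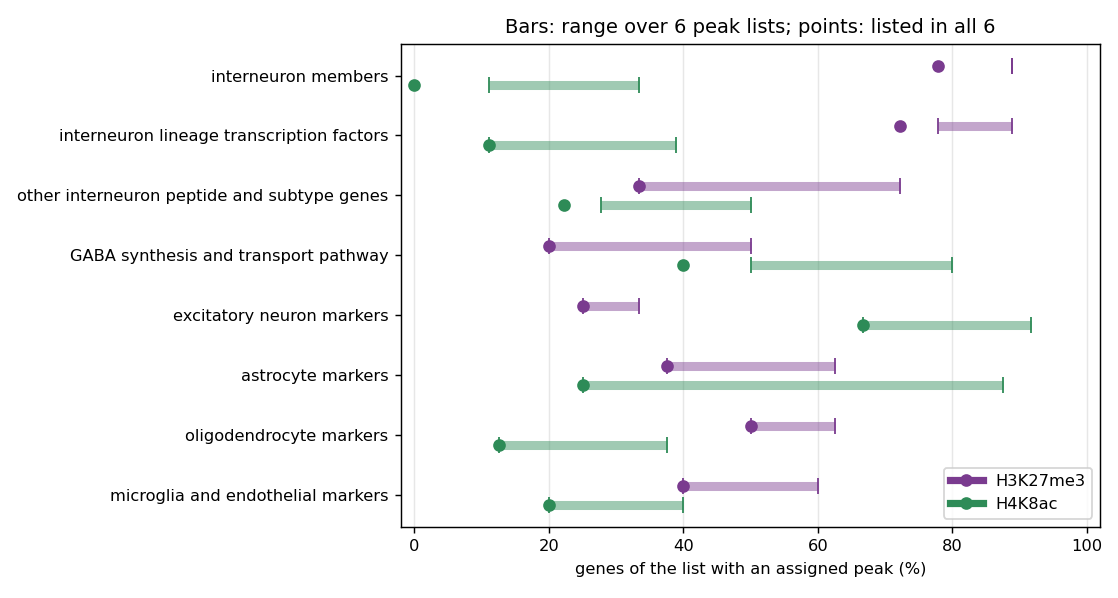
The percentage of genes in each list with an assigned peak; bars span the lowest and the highest of the 6 lists of each mark, and points give the percentage named by all 6. The 9 markers and the lineage transcription factors lie to the right in H3K27me3 and to the left in H4K8ac, and the excitatory neuron markers the other way round. The oligodendrocyte list and the microglial and endothelial list lean the same way as the 9 markers, with less distance between the marks.

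The excitatory neuron markers served as a check of the labelled cell type. Of the 12, 8 were in all 6 H4K8ac lists (Neurod1, Neurod2, Neurod6, Emx1, Tbr1, Camk2a, Rbfox3 and Grin2b), and the median H4K8ac covered share of the 12 was 9.36%. It was highest at Neurod1 (84.3%) and Tbr1 (68.5%), both transcription factors of excitatory neurons, and 4.23% at Camk2a. Emx1 was also named by 5 of the 6 H3K27me3 lists, although no such peak covered its window. Slc17a6 and Prox1, which marks dentate granule cells, were among those in all 6 H3K27me3 lists. Markers of other cells were also named by H4K8ac lists, which name 19.6 to 41.2% of protein-coding genes: 2 to 7 of 8 astrocyte genes, 1 to 3 of 8 oligodendrocyte genes and 2 to 4 of 10 microglial and endothelial genes per list, among them Aqp4, Slc1a2, Mbp, P2ry12 and Pecam1 in all 6, and the part of such cells in the values above was not tested. H3K27me3 named 3 to 5 of the 8 astrocyte genes (Aqp4, Slc1a3 and Aldh1l1 in all 6 lists), 4 to 5 of the 8 oligodendrocyte genes (Mag, Olig1, Olig2 and Pdgfra) and 4 to 6 of the 10 microglial and endothelial genes (C1qa, Tmem119, Cldn5 and Flt1). The median H3K27me3 covered share was 2.11% in the astrocyte, 44.7% in the oligodendrocyte and 0.697% in the microglial and endothelial list, beside 55.9% for the 9 markers.

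The protein-coding genes whose 12 covered shares were most like the mean profile of the 9 members were Plcb4, Elovl3, Hs3st3b1, Tlx2 and Msx3, each with a Pearson r of 0.999 across the lists. Plcb4 encodes a phospholipase C, Elovl3 a fatty acid elongase, Hs3st3b1 a heparan sulfate sulfotransferase, and Tlx2 and Msx3 homeobox transcription factors. The mean profile was 37.3 to 61.3% in the H3K27me3 lists and 0 to 0.654% in the H4K8ac lists, so most of the likeness is the gap between the marks, which the 12 points share along with the length of each list.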

How the data were processed

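CUT&RUN-seq libraries of H4K8ac and H3K27me3 were taken from hippocampal nuclei of Emx1-NuTRAP mice. Per the study's methods and the labels, the authors checked reads with FastQC 0.11.9, aligned them to mm10 with Bowtie2 2.4.1, called peaks with SEACR and annotated them with ChIPseeker 1.8.6, taking a promoter as 3 kb on either side of a start. They left out libraries with too high a false discovery rate, all of them exercised H4K8ac. How libraries were combined into a list is not given in the sources used here. The deposited lists hold positions and widths in bp, with no counts, signal, score or p-value, so read depth per list is unknown beyond the minimum per library stated in the methods; some starts appear to be counted from 0, which could shift them by 1 bp.

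Lists were taken as 1 value per mark, condition and arm. A gene's covered share is the percentage of its gene body with 3 kb on each side (GENCODE M21, of the same build) that merged peaks cover. Start sites and promoter sequences came from RefSeq (GRCm38.p6); all 9 genes matched. Exact two-sided sign-flip permutation tests ran over all genes with coverage, adjusted by Benjamini-Hochberg, and the code was tested on simulated data. Computations ran in pandas 2.3.3 and numpy 2.4.6 under Python 3.11.15, and plots in matplotlib 3.10.9. Alternatives were a promoter peak, any overlapping peak, a start inside a peak, at least 2 peaks, the widest 50% of each list, lists cut to equal numbers, overlap between conditions, other windows and leaving out an arm. The 9 genes are all described; from the other lists, genes named by all 6 lists of a mark are named (some are not reported here), as are the 5 genes of most similar profile and the genes given peaks that overlap a member. Examples within those sets, and Neurod1, Tbr1 and Satb1 for their values, and Cort and Id2, were chosen after their values were seen. The members and lists were chosen with earlier results of these data known.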

Additional observations from a re-analysis of the deposited data

Results flagged for a closer look

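Gad1 and Npy were picked out because their H4K8ac listing moved in opposite directions in different arms; with a single pooled list per condition and arm, the difference was not tested. Gad1 was listed in the exercised list alone in the SIT arm, with 2 peaks of 3098 bp in all, and in the sedentary list alone in the left arm, with 2 peaks of 3236 bp in all. Npy was listed in the sedentary list alone in the left arm, with 3 peaks of 3188 bp in all, and in the exercised list alone in the right arm, with 4 peaks of 6692 bp in all.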

How the results depend on the processing

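Counts below are summed over the 3 arms, out of 27 gene and arm combinations. H3K27me3 listing was 24 in the exercised and 24 in the sedentary lists and fell furthest when at least 2 peaks were required, to 16 and 15. H4K8ac listing was 6 and 6. With a promoter peak, or with a start site inside a peak, it was 0 in both conditions. With any peak overlapping the gene and its flanks it was 1 and 2, with at least 2 peaks 3 and 3, and with the widest 50% of each list 4 and 1. Gains in H4K8ac were 4 and losses 4; they were 0 and 0 with a promoter peak or a start inside a peak, 1 and 2 with any overlap, and 2 and 2 with at least 2 peaks. Losses were 1 with the widest 50% and 2 with lists cut to equal numbers, while gains stayed at 4 in both. Gains in H3K27me3 were 1 and losses 1; gains were 0 with any overlapping peak or without those overlapping the other condition by 1 bp, gains and losses were 5 and 4 with at least 2 peaks, and 2 and 2 with the widest 50%. The median difference between the marks was 55.8 percentage points and rose to 94.2 within 3 kb of the start site. Members higher in every pair were 8, and 7 with the gene body alone or the widest 50%. At Vip the difference, 19.8, was 6.21 with the gene body alone (adjusted exact permutation p = 0.417) and 47.6 around the start. Of these values 51 of 78 stayed within their spread or a factor of 1.5. The cause was not tested, other than the fewer peaks that each stricter count leaves. Leaving out an arm kept the median difference between the marks at 52.9 to 58.6. The median H3K27me3 difference with exercise, -5.23, was -9.60 to 4.51 when an arm was left out, being above 0 without the right arm. No paired analysis was possible because the lists are pooled and carry no replicate numbers, and the pairs tested are lists of the same arm rather than replicates. Peaks without signal or depth limit all of this to presence and extent.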

Other observations

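Of the H3K27me3 peaks assigned to the 9 markers, 75 of 340, or 22.1%, were in the promoter class, against 20.3% of all H3K27me3 peaks. Without Reln, which holds most of them, it was 43 of 119, or 36.1%. Distal intergenic peaks made up 23.5% with Reln and 49.6% without it, against 45.3% of all. Of the H4K8ac peaks, 79.2% were distal intergenic against 28.3% of all H4K8ac peaks; without Npy it was 5 of 10. These shares were not tested, since peaks of different lists at the same gene are not independent.

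Within the marker windows, the bases covered by H3K27me3 in both conditions of an arm, as a fraction of those covered in either, ran from 0.563 at Gad2 to 1 at Slc32a1 and Sst in the SIT arm except at Vip (0.347). They were lower in the right arm than in the SIT arm for 8 of the 9 genes (all but Vip), and ran there from 0 at Gad1 to 0.872 at Slc32a1. The same fraction was not computed over all genes. The exercised list covered 0.360 times as many bases as the sedentary list in the right arm and 1.88 times in the SIT arm. Unequal lists limit the fraction, and how far they set these values was not tested.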
